A study of Amia calva with 36 samples.

Results

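Early dorsal mesoderm genes are 66 bowfin genes whose reads were found in the dorsal but rarely in the ventral foregut mesoderm of embryos at stages 24 and 25. They were picked by their measured values from a table of 21948 genes, of which 11428 carry the identifier of an orthologous gene in spotted gar, another ray-finned fish. A gene was kept if it had a gar identifier and at least 1 read in 5 or more of 6 dorsal mesoderm libraries, in at most 1 of 6 ventral mesoderm libraries, and in 3 or more of the 12 libraries of stage 27. A read was taken as present where the deposited log2 CPM was above 0.88, and CPM are a gene's reads scaled to the total assigned to genes in the library. A limit of 100 genes, to be applied by the size of the dorsal-ventral difference, was not reached. The values of early mesoderm therefore chose these genes, and they are given below as a description, with no test.

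The study sequenced RNA from embryonic foregut of the bowfin, Amia calva, cut out by laser from frozen cross-sections through the region of the gas bladder bud. The 36 libraries form 12 groups of 3, given here in the order dorsal mesoderm, ventral mesoderm, dorsal endoderm and ventral endoderm, each at Ballard stages 24, 25 and 27. Per the labels, the gas bladder has not yet budded at stage 24, buds at stage 25 and grows out at stage 27. All embryos came from eggs collected in the wild and reared at 12.8 °C, and no group was treated or carried a mutation. RNA was amplified before library construction. Nothing in the labels says which embryo a library came from. All 4 regions were taken from each section, so libraries of different regions may share an embryo, and the p-values speak of the spread among these libraries alone. If libraries of 1 group share an embryo, the p-values are too small.

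The foregut is a tube of endoderm, which forms the lining of the gut and of its air-filled outgrowths, wrapped in mesoderm, which forms their connective tissue, smooth muscle and vessels. In the mouse the lung buds from the ventral foregut, and mesoderm around the bud sends the signals Fgf10, Wnt2 and Wnt2b that the endoderm needs to become lung and to grow out. The gas bladder of the bowfin is an air-filled organ that buds from the dorsal side instead, the inversion named in the title of the study. Whether genes present in mesoderm on the dorsal side before and during budding have a part in it was not tested. The deposited table pairs its bowfin identifiers with gar identifiers and not with gene names, so no name or role is given for any of the 66 genes, lists of named marker and pathway genes could not be looked up, and the captured regions were not checked against markers of their cell types.

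The libraries held 377516 to 1998280 reads assigned to genes, apart from the third ventral endoderm library of stage 24, which held 3040. That library was left out of the early endoderm test. Fewer genes were read in early than in late mesoderm: 3739 to 7283 in the 6 early dorsal mesoderm libraries, 2616 to 5906 in the 6 early ventral mesoderm libraries, 8511 to 12602 in stage 27 dorsal mesoderm and 11039 to 13512 in stage 27 ventral mesoderm. The comparison genes used below are the 8381 genes with a gar identifier and a read in at least 3 of the 12 stage 27 libraries, 66 members included. Of these, 38.1% ± 10.3 were read per early dorsal mesoderm library and 31.0% ± 9.72 per early ventral mesoderm library (SD, n = 6 each). The ventral mean was lower by less than the SD of either group, and what this difference contributes to the choice of the 66 genes was not tested. No pair of libraries held identical values.

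In early mesoderm 1447 comparison genes were read in at least 5 of the 6 dorsal libraries. Among these, 357 were read in all 6 ventral libraries, 338 in 5, 312 in 4, 227 in 3 and 147 in 2, while 54 were read in 1 and 12 in none; the last pair of counts makes up the 66. The same rule turned round, for genes read in ventral and rarely in dorsal mesoderm, gave 7 genes. The size of this contrast of 66 with 7 depended on which libraries were used. Without the 2 early ventral mesoderm libraries with the fewest genes, an alternative chosen after seeing the data, the rule gave 111 genes before the size limit. The reverse rule gave 112, but it then asked for 3 of 4 ventral libraries while all 6 dorsal libraries were kept. These counts come from unequal rules and do not show that the sides were alike. Without replicates 1, 2 and 3 in turn, when 3 of 4 libraries were asked for on each side, the counts were 526, 300 and 696 for dorsal mesoderm and 119, 259 and 97 for ventral mesoderm. The dorsal count was the larger each time, by an amount that varied widely. Each of these runs kept at least 1 of the 2 ventral libraries with the fewest genes, replicate 2 of stage 24 and replicate 3 of stage 25. They therefore do not show how the sides compare without both. Applied to early endoderm, the rule gave 15 genes for the dorsal side and 8 for the ventral side, and 0 of the 66 were among either. Only 2 of the 66 were read in 6 dorsal and 0 ventral libraries, 5 were read in 6 and 1, 10 in 5 and 0, and 49 in 5 and 1. In bulk tissue a gene carried by fewer cells and a gene with less RNA per cell cannot be told apart.

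Most of the set sits at the edge of the rule. The 49 genes just inside, read in 5 dorsal libraries and 1 ventral library, had a median log2 difference between dorsal and ventral means of 2.6, with median mean levels of 52.5 CPM in dorsal mesoderm and 3.27 CPM in ventral mesoderm. Just outside were 148 genes read in 4 dorsal libraries and at most 1 ventral library, with a median log2 difference of 2.00, 26.5 CPM in dorsal mesoderm and 0.924 CPM in ventral mesoderm. Another 147 genes, read in at least 5 dorsal and in 2 ventral libraries, had a median log2 difference of 2.27, 65.8 CPM in dorsal mesoderm and 17.3 CPM in ventral mesoderm. Both outer groups had somewhat smaller median differences than the genes inside. The read counts that define the groups partly fix these values, so they do not show whether the groups are alike.

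Over the 66 genes the mean log2 difference, dorsal minus ventral, ran from 0.51 to 6.44 with a median of 2.72. Mean levels over the 6 libraries were 0.993 to 367 CPM in dorsal mesoderm, with a median of 53.3, and 0 to 140 CPM in ventral mesoderm, with a median of 1.54. The differences are between means of log2 values and do not make every gene higher in dorsal mesoderm by mean CPM. The ventral mean of 140 CPM was that of AMCG00017266, from 840 CPM in 1 library of stage 25 and 0 CPM in the others. Its dorsal values were 55.7, 2.68 and 88.5 CPM at stage 24 and 0, 27.5 and 5.80 CPM at stage 25. How many genes were higher in ventral mesoderm by mean CPM was not counted. Within dorsal mesoderm the values were uneven. The highest of the 6 dorsal libraries held a median of 54.9% of a gene's summed dorsal CPM, from 26.9% to 95.3%, and it held more than 50% of the sum in 38 of the 66 genes. Among dorsal libraries with a read, the highest value was a median of 39.9 times the lowest. Of the 337 dorsal values with a read, 239 rested on at least 10 reads and 40 on only 1 or 2 reads, spread over 27 genes.

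The lone ventral library with a read often was not low. In 30 of the 54 genes with such a library, its value was above the median of the 6 dorsal libraries. The genes were chosen by the number of libraries with a read, not by level. Most of the ventral reads came from few libraries: the 3 ventral libraries of stage 24 read 10, 2 and 24 of the 66 genes and those of stage 25 read 9, 8 and 1. The 3 dorsal libraries of stage 24 read 62, 64 and 53 and those of stage 25 read 55, 61 and 42.

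**Figure D1:**
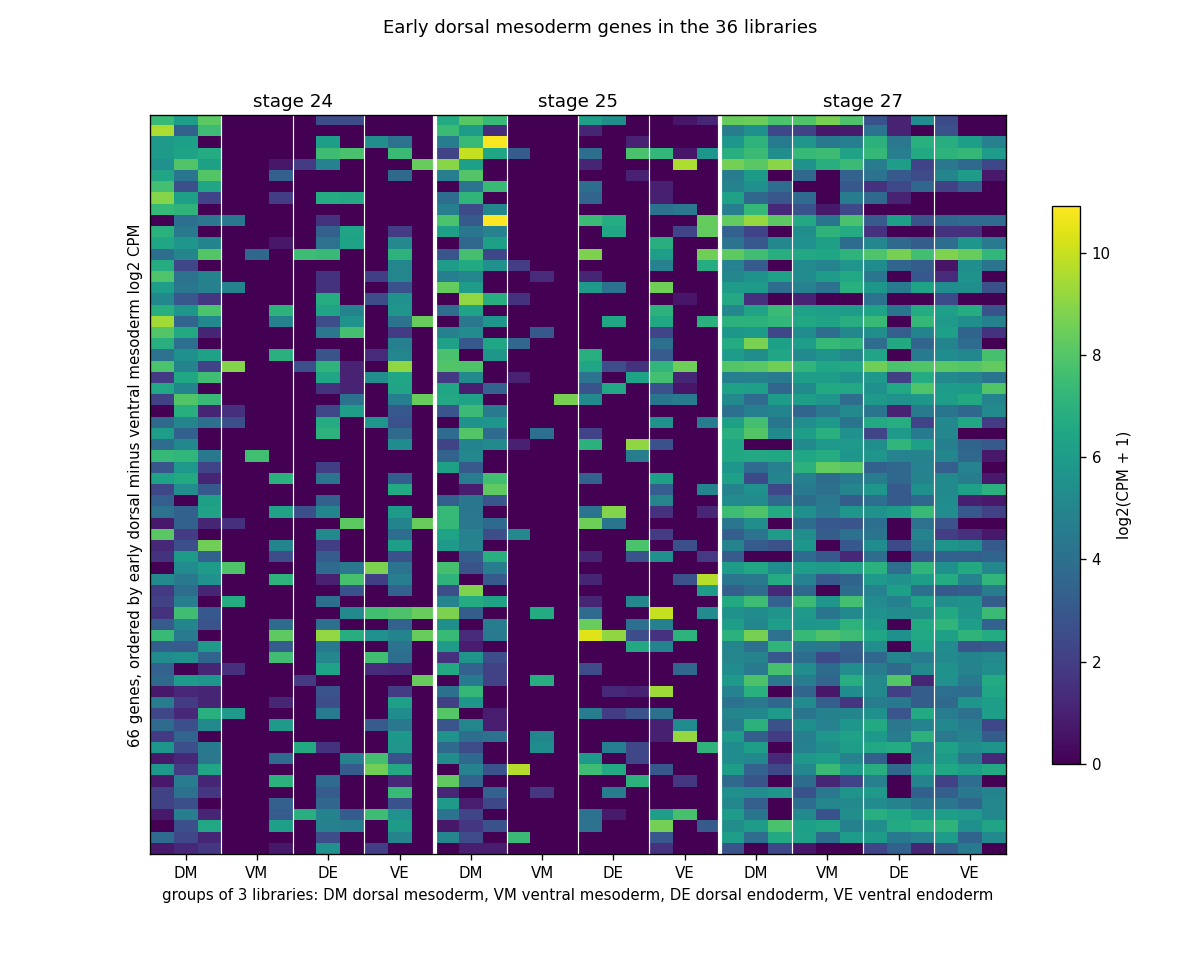
Level of each of the 66 genes (rows, ordered by the early mesoderm difference) in each of the 36 libraries (columns), as log2(CPM + 1). Dark cells, which are values at or near 0, fill most of the ventral mesoderm columns at stages 24 and 25, endoderm columns of these stages are mixed, and at stage 27 most cells in all 4 regions hold reads.

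The gene with the largest difference was AMCG00006763, whose gar ortholog is ENSLOCG00000016391. It measured 164, 69.7 and 284 CPM in the dorsal mesoderm libraries of stage 24 and 100, 269 and 169 CPM in those of stage 25, against 0 CPM in all 6 ventral mesoderm libraries. No dorsal library came near 0. That the groups did not overlap follows for any gene read in all 6 dorsal and 0 ventral libraries. Its 1255 reads in dorsal mesoderm and 0 reads in ventral mesoderm put dorsal mesoderm at least 358-fold higher, with 3 counts over the 6 ventral libraries together taken as the most that 0 reads allow. Floors and ratios of reads cover counting error only, since amplified reads are not independent molecules.

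The next gene was AMCG00006592, the ortholog of gar ENSLOCG00000016436, the only other gene with reads in 6 dorsal and 0 ventral libraries. It measured 773, 9.38 and 181 CPM in dorsal mesoderm at stage 24 and 171, 65.0 and 1.66 CPM at stage 25, and 0 CPM in every early ventral mesoderm library. With the reads of the 6 libraries pooled, dorsal mesoderm was at least 481-fold higher by the same floor. The library at 773 CPM weighs most in this ratio. The library at 1.66 CPM lay near the floor itself, 0.486 CPM over the 6 ventral libraries, so the ratio is not a bound for each library. Its dorsal values differed far more among themselves than those of AMCG00006763.

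At the low end stood AMCG00010179, with a log2 difference of 0.51. It measured 0.663, 1.34 and 2.36 CPM in dorsal mesoderm at stage 24 and 0, 0.765 and 0.828 CPM at stage 25, against 0, 0 and 0.616 CPM in ventral mesoderm at stage 24 and 0 CPM in the 3 libraries of stage 25. The highest ventral value was close to the lowest dorsal values with a read, so this gene passed on very few reads.

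Between stages 24 and 25, from before to during budding, the 66 genes showed no common direction in dorsal mesoderm. Mean CPM was higher at stage 25 in 36 genes and lower in 30. The median log2 difference, stage 25 minus stage 24, was -0.23 over the 66 genes and -0.31 over all comparison genes read in at least 5 early dorsal libraries. In 3 genes all 3 libraries of stage 25 lay above all 3 of stage 24, and in 0 genes all lay below, or 4.55% and 0% of the 66. Over the 1447 comparison genes read in at least 5 early dorsal libraries these shares were 3.94% and 6.01%, so the count of 3 was near the background. An example is AMCG00020624, at 156, 19.9 and 12.4 CPM at stage 25 and 0.663, 9.38 and 1.18 CPM at stage 24. Library numbers run in blocks by stage, so stage and any step shared by such a block cannot be told apart.

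Early endoderm was not used to choose the genes. There the 66 genes were neither absent nor general: each was read in at least 1 of the 12 endoderm libraries of stages 24 and 25, with a median of 4 libraries and a highest count of 10. The comparison genes were read in a median of 3 of these libraries, and comparison genes read in at least 5 early dorsal mesoderm libraries in a median of 9. By side, 22 of the 66 were read in more dorsal than ventral endoderm libraries, 19 in fewer and 25 in equal numbers. Each dorsal endoderm library read 7 to 48 of the 66 genes and each ventral endoderm library 7 to 53, or 16 to 53 without the library of 3040 reads, and these ranges overlap.

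**Figure D2:**
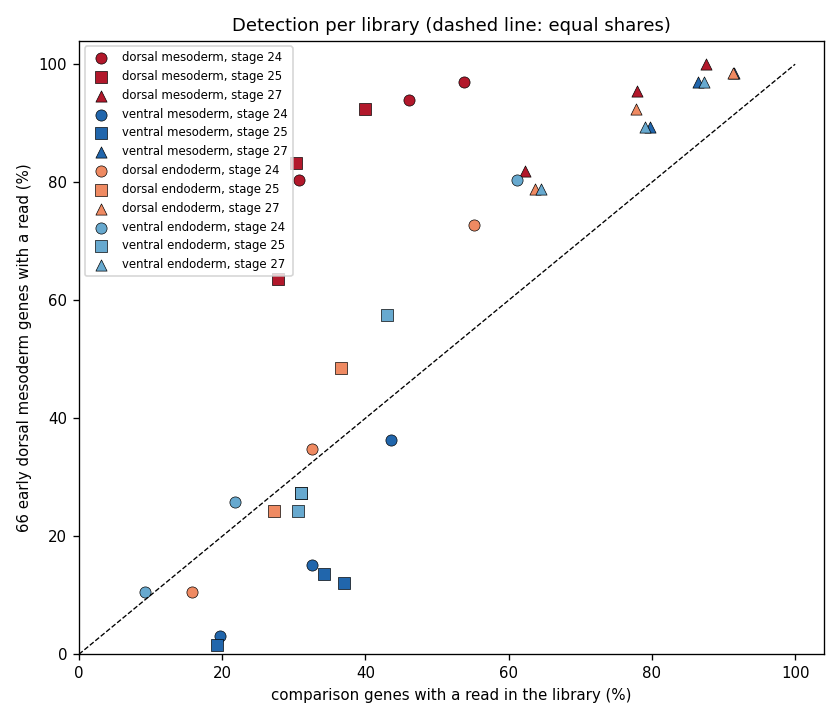
Share of the 66 genes with a read (vertical axis, %) against the share of the 8381 comparison genes with a read (horizontal axis, %), 1 point per library. The 6 early dorsal mesoderm libraries lie far above the line of equal shares and the 6 early ventral mesoderm libraries below it, both through the choice of the genes, while early endoderm libraries lie on both sides of the line and all 12 stage 27 libraries lie above it.

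The gene read in the most early endoderm libraries was AMCG00013279, in 10 of 12. It measured 0, 566 and 112 CPM in dorsal endoderm at stage 24 and 1326, 545 and 5.00 CPM at stage 25, against 44.6, 29.8 and 329 CPM in ventral endoderm at stage 24 and 1.92, 134 and 0 CPM at stage 25. The value of 329 CPM is 1 read in the library of 3040 reads. The highest early values of this gene were in endoderm, above its highest early value in dorsal mesoderm, 170 CPM. Its highest early mesoderm value was ventral, 295 CPM in the third library of stage 24, the only early ventral mesoderm library with a read. AMCG00006592 lay at the other end, with a read in 1 dorsal endoderm library of stage 25, at 1.21 CPM, and 0 CPM in the other 11.

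AMCG00006763, the gene with the largest mesoderm difference, was read in 4 of the 6 dorsal endoderm libraries, at 0, 5.06 and 4.57 CPM at stage 24 and 71.3, 42.0 and 0 CPM at stage 25. In ventral endoderm it measured 0 CPM in the 3 libraries of stage 24 and 0, 0.589 and 1.26 CPM in those of stage 25. The highest dorsal endoderm values were thus on the scale of its lowest dorsal mesoderm values, and the sides overlapped at 0.

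Dorsal and ventral endoderm at stages 24 and 25 were compared in 1 fit, which could show little at this depth. Deposited log2 CPM were fitted with limma over 10007 genes in 23 libraries. These were 11 endoderm libraries and the early mesoderm libraries by which the genes were chosen. The mesoderm values entered the spread behind each SE and p, so the p-values of the 66 are not independent of that choice. All 66 genes passed the filter on low values, CPM over 1 in at least 3 libraries. Of these, 54 had CPM over 1 in at least 3 of the 11 endoderm libraries, and 12 passed only with mesoderm libraries counted in. Those 12 genes remain in the counts, shares and medians that follow. The count past an adjusted p of 0.05 was 0 of 66, against 1 gene of all tested, or 0.00999%, with 0 of the 66 under voom as well. With so few calls over all genes, a count of 0 does not show that the sides were alike. At an unadjusted p under 0.05 there were 0 higher and 1 lower among the 66, against 1.18% higher and 2.46% lower over all genes. The log2 difference was above 0 in 24 of the 66 (36.4%), against 45.2% of all genes. In 0 of the 66 did the sides not overlap, against 0.02% of all genes with all dorsal libraries higher and 0.06% with all lower. The median log2 difference was -0.37 over the 66 and -0.13 over all genes, and this sign rests on single libraries: without the second ventral endoderm library of stage 24 the median was 0.26 over the 66 and 0.33 over all genes, and without the first it was -1.09 and -0.61.

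AMCG00001770 had the largest negative difference in early endoderm, a log2 of -4.47 (SE 1.77, limma adjusted p = 1). It measured 0, 0 and 34.3 CPM in dorsal endoderm at stage 24 and 13.3, 0 and 0 CPM at stage 25, against 197, 230 and 329 CPM in ventral endoderm at stage 24 and 998, 0 and 37.9 CPM at stage 25. The dorsal values lay below the ventral values except for the ventral library at 0, and 329 CPM is again 1 read and was not in the fit. In dorsal mesoderm the same gene was at 1.99, 188 and 7.08 CPM at stage 24 and 435, 8.42 and 0 CPM at stage 25, so its highest early value, 998 CPM, was in ventral endoderm and the next, 435 CPM, in dorsal mesoderm. AMCG00015893 had the largest positive difference, a log2 of 2.30 (SE 1.64, limma adjusted p = 1), with 0, 107 and 94.8 CPM in dorsal endoderm at stage 24 and 10.9, 0 and 0 CPM at stage 25, against 0 CPM in 3 ventral endoderm libraries of stage 24 and 0.959, 0 and 0 CPM at stage 25.

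At stage 27, during outgrowth, reads of the 66 genes were found in all 4 regions, and ventral mesoderm libraries read about as many of them as dorsal mesoderm libraries did. Dorsal mesoderm libraries read 66, 63 and 54 of the 66 genes and ventral mesoderm libraries 65, 59 and 64. These counts are not matched for depth: ventral mesoderm libraries held 1418444 to 1757712 reads and dorsal mesoderm libraries 723011 to 1133036. The ventral libraries also read more of the comparison genes, a mean of 85.9% against 75.9%. Dorsal endoderm libraries read 65, 52 and 61, and ventral endoderm libraries 64, 59 and 52. The share of the 66 genes read was 78.8% to 100% per library, above the share of comparison genes, 62.3% to 91.5%, in each of the 12 libraries. Of the 66 genes, 35 (53.0%) were read in all 12 libraries, against 3047 (36.4%) of the comparison genes. The rule asked the 66 for reads in at least 5 early dorsal libraries, which comparison genes did not have to meet. These shares were not counted over the 1447 comparison genes with such reads, so the higher shares are not shown to be particular to the 66.

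Levels of the 66 genes at stage 27 were highest in dorsal mesoderm and lowest in ventral endoderm by the median, an order that was not tested. Summed over the 66 genes, libraries held 3862 to 5941 CPM in dorsal mesoderm and 3235 to 3940 CPM in ventral mesoderm. The sums were 2573 to 3484 CPM in dorsal endoderm and 2627 to 3219 CPM in ventral endoderm. The median of the mean levels of the 66 genes was 42.5 CPM in dorsal mesoderm, 39.3 CPM in ventral mesoderm, 34.6 CPM in dorsal endoderm and 27.8 CPM in ventral endoderm. Over the comparison genes it was 18.0, 19.5, 18.8 and 17.9 CPM in the same order of regions, and over comparison genes read in at least 5 early dorsal mesoderm libraries it was 126, 125, 125 and 118 CPM. The 66 genes thus lay between these levels. Of the 4 regions, dorsal mesoderm had the highest mean for 30 of the 66 genes, ventral mesoderm for 13, dorsal endoderm for 10 and ventral endoderm for 13. The same shares were not counted over the comparison genes.

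The comparison of dorsal with ventral mesoderm at stage 27 asks whether the early side difference was present in libraries that did not choose the genes by side. The limma fit over 13471 genes in the 12 stage 27 libraries called 0 of the 66 genes, against 37 of all genes, or 0.275%, at an adjusted p of 0.05. Over all genes 0.0668% were called higher and 0.208% lower in dorsal mesoderm. The smallest adjusted p among the 66 was 0.192, and 0.0783 to 0.518 under the alternative settings; voom called 0 of the 66 and 59 of all genes. At an unadjusted p under 0.05, 7 of the 66 were higher in dorsal mesoderm, against 2.26% of all genes, and 4 were lower, against 4.6%.

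The log2 difference was above 0 in 40 of the 66 genes, or 60.6%, against 41.5% of all genes, and its median was 0.23 over the 66 and -0.21 over all genes. Its range over the 66 was -4.15 to 3.17. In 7 genes (10.6%) all 3 dorsal libraries were above all 3 ventral libraries, against 4.48% of all genes, and in 4 genes (6.06%) all 3 were below, against 7.51%. The difference between these shares was not tested, because the genes were chosen on dorsal mesoderm of the same study. In this and the other fits, the set of all genes tested did not have to meet the rule's demands for a gar identifier and early dorsal reads. The shares were not counted over genes that did. The median over all genes was -0.09 under quantile normalization and -0.11 under median centring, with 0.42 and 0.32 over the 66.

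**Figure D3:**
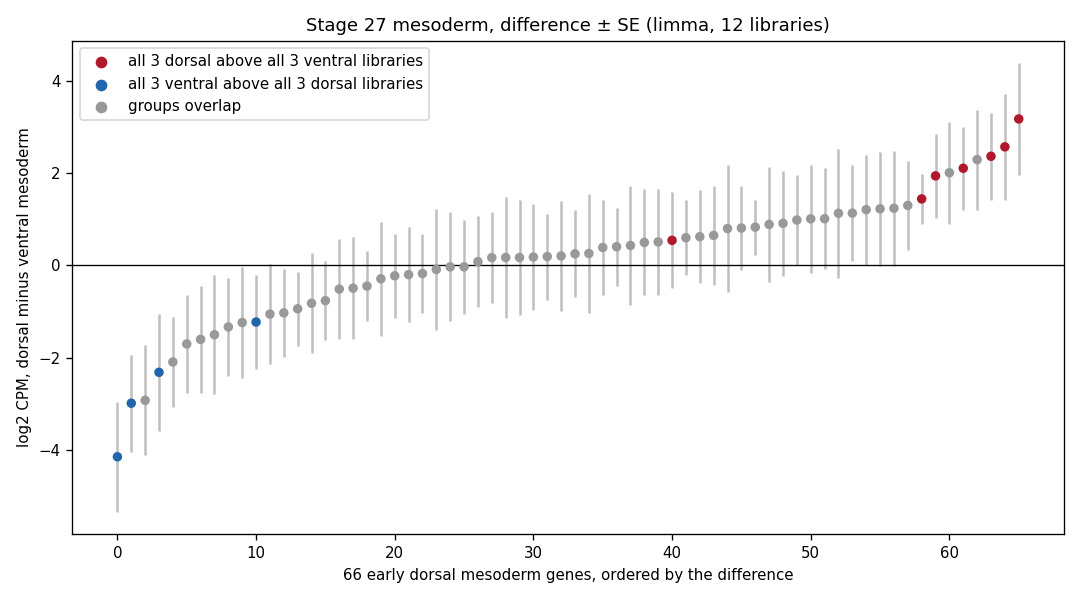
Log2 CPM difference, dorsal minus ventral mesoderm at stage 27, for the 66 genes in order of the difference, with the standard error from limma. Differences run from -4.15 to 3.17, 40 of them above 0, and 7 genes (red) had all dorsal libraries above all ventral libraries while 4 (blue) had the reverse.

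The largest positive difference at stage 27 was that of AMCG00018150, the ortholog of gar ENSLOCG00000001710. It measured 28.5, 44.1 and 13.8 CPM in dorsal mesoderm, against 0, 0 and 7.05 CPM in ventral mesoderm. The groups did not overlap, but the log2 difference of 3.17 (SE 1.21) did not pass the test, with a limma adjusted p of 0.477. In early dorsal mesoderm it measured 199, 5.36 and 87.3 CPM at stage 24 and 0, 16.8 and 163 CPM at stage 25, with 0 CPM in all early ventral mesoderm libraries.

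AMCG00006592 had the next largest positive difference. It measured 23.5, 43.2 and 4.15 CPM in dorsal mesoderm and 3.41, 0.638 and 0.705 CPM in ventral mesoderm at stage 27. The lowest dorsal library was only slightly above the highest ventral library, and the log2 difference was 2.57 (SE 1.15, limma adjusted p = 0.667). Its stage 27 levels in dorsal mesoderm were below 4 of its 6 early values there.

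The largest negative differences belonged to a pair of genes that had no read at all in early ventral mesoderm. AMCG00011254, the ortholog of gar ENSLOCG00000010111, measured 9.81, 3.53 and 0 CPM in dorsal mesoderm at stage 27, against 41.0, 136 and 106 CPM in ventral mesoderm. Every ventral library was above every dorsal library, a log2 difference of -4.15 (SE 1.19) that did not pass the test, with a limma adjusted p of 0.192. In early dorsal mesoderm it had been read in 5 libraries, at 126, 20.1 and 0 CPM at stage 24 and 70.6, 18.4 and 27.3 CPM at stage 25.

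AMCG00007793, the ortholog of gar ENSLOCG00000014736, measured 52.0, 13.2 and 26.3 CPM in dorsal mesoderm at stage 27 and 130, 316 and 269 CPM in ventral mesoderm. Here too the groups did not overlap, and the log2 difference was -2.99 (SE 1.05, limma adjusted p = 0.392). Its early dorsal mesoderm values were 6.63, 56.3 and 3.54 CPM at stage 24 and 71.8, 7.65 and 0 CPM at stage 25, so its highest levels of the series were in late ventral mesoderm. In early endoderm it was read in 1 of 12 libraries, at 3.04 CPM in dorsal endoderm of stage 24.

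**Figure D4:**
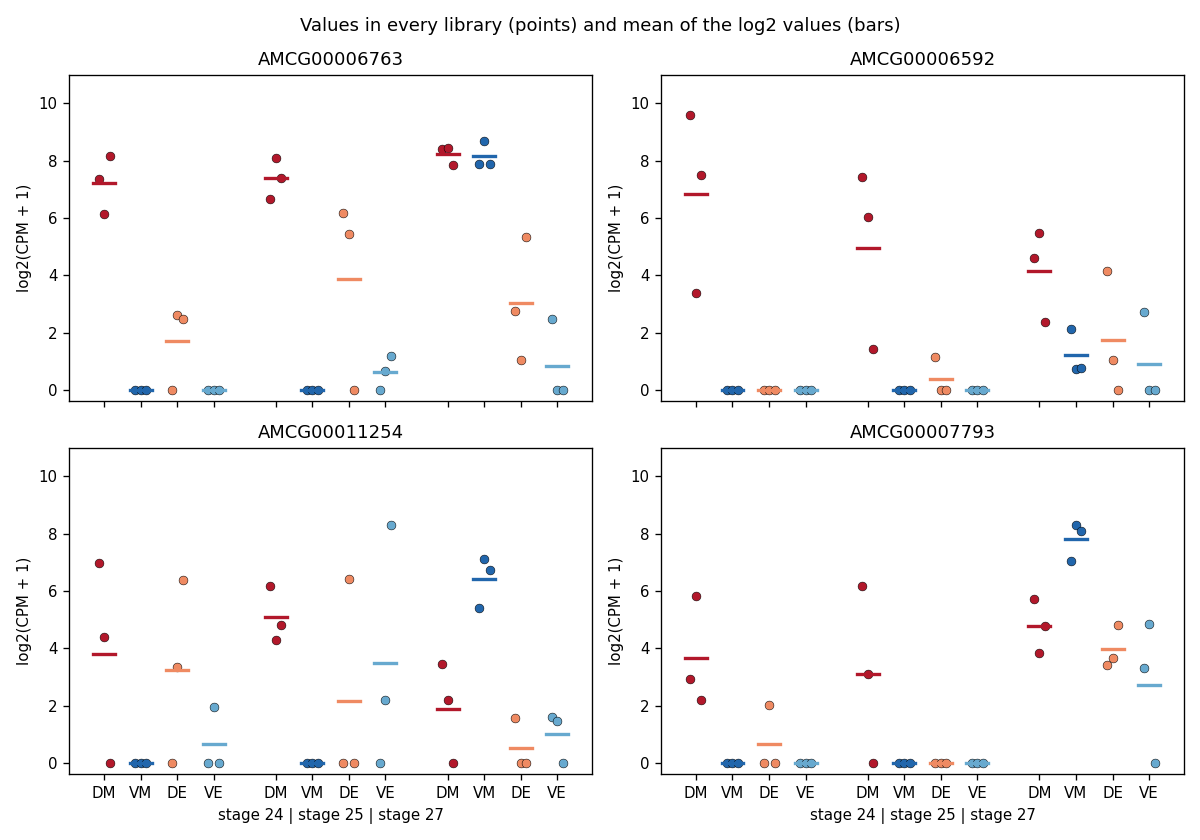
Levels of 4 of the genes in every library as log2(CPM + 1), by region (DM and VM dorsal and ventral mesoderm, DE and VE dorsal and ventral endoderm) at stages 24, 25 and 27 from left to right; points are libraries and bars the mean of the 3 log2 values. All 4 genes are at 0 in early ventral mesoderm; at stage 27 AMCG00006763 is equally high in both mesoderm regions, AMCG00006592 has its higher values in dorsal mesoderm, and AMCG00011254 and AMCG00007793 have theirs in ventral mesoderm.

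AMCG00006763, at 0 in early ventral mesoderm, measured 336, 351 and 228 CPM in dorsal mesoderm at stage 27 and 237, 411 and 233 CPM in ventral mesoderm. The groups overlapped almost fully. The log2 difference was 0.08 (SE 0.98, limma adjusted p = 1).

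The 2 layers were compared on each side at stage 27, since the rule fixed no layer at that stage. On the dorsal side, limma called 4 of the 66 genes, or 6.06%, all higher in mesoderm than in endoderm, against 619 of all genes, or 4.6%, made up of 2.46% higher and 2.14% lower. At an unadjusted p under 0.05, 7 of the 66 were higher and 2 lower, against 9.15% and 8.7% of all genes. Differences were above 0 in 42 of the 66 (63.6%), against 47.6% of all genes. The median log2 difference was 0.44 over the 66 and -0.08 over all genes. In 7 of the 66 (10.6%) all mesoderm libraries were above all endoderm libraries, against 9.15% of all genes, and in 1 (1.52%) all were below, against 9.76%. The count of 4 fell to 1 when all 36 libraries shared their spread.

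AMCG00006763 had the largest difference on the dorsal side, with the mesoderm values above and 5.78, 1.07 and 39.1 CPM in dorsal endoderm. Dorsal mesoderm was higher by a log2 of 4.96 (SE 0.98, limma adjusted p = 0.00169, 0.000432 to 0.0314 under the alternatives), with all 3 mesoderm libraries above all 3 endoderm libraries. AMCG00017528, the ortholog of gar ENSLOCG00000009531, measured 318, 608 and 289 CPM in dorsal mesoderm and 7.70, 71.7 and 5.93 CPM in dorsal endoderm. It was higher in dorsal mesoderm by a log2 of 4.45 (SE 0.95, limma adjusted p = 0.00348), again without overlap, but the adjusted p was 0.219 when all 36 libraries shared their spread. In early dorsal mesoderm 1 library of stage 25 held most of its reads, with 223, 7.65 and 1938 CPM there and 0, 14.7 and 18.9 CPM at stage 24. The other genes called were AMCG00009784 (log2 4.19) and AMCG00013933 (log2 3.69). Their limma adjusted p ran from 0.0017 to 0.306 and from 0.00582 to 0.175 under the alternatives, so neither call held throughout. AMCG00013933 measured 24.5, 154 and 1.38 CPM in dorsal mesoderm and 0 CPM in all dorsal endoderm libraries.

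No gene of the 66 was called lower in dorsal mesoderm than in dorsal endoderm. The largest negative difference was that of AMCG00009750, at 84.4, 0 and 0 CPM in dorsal mesoderm and 43.0, 144 and 71.1 CPM in dorsal endoderm, a log2 of -3.56 (SE 1.19, limma adjusted p = 0.0797). Its groups overlapped through the first dorsal mesoderm library. Without that library, and under voom, the gene passed the threshold.

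On the ventral side, where the 66 genes had been rare in early mesoderm, limma called 5 of the 66, or 7.58%, all higher in mesoderm than in endoderm, against 425 of all genes, or 3.15%, made up of 2.63% higher and 0.527% lower. At an unadjusted p under 0.05, 10 of the 66 were higher and 3 lower, against 9.56% and 4.45% of all genes. Differences above 0 were found in 39 of the 66 (59.1%), against 54.7% of all genes. In 16 of the 66 (24.2%) all ventral mesoderm libraries were above all ventral endoderm libraries, against 12.3% of all genes, and in 5 (7.58%) all were below, against 7.7%. The median log2 difference was 0.38 over the 66 and 0.15 over all genes. The count of 5 depended on single libraries. It was 3, 1 and 1 without the first, the second and the third ventral mesoderm library. It was 2 and 1 without the second and the third ventral endoderm library, and it rose without the first.

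AMCG00006763 again had the largest difference, with 4.50, 0 and 0 CPM in ventral endoderm below the 237, 411 and 233 CPM of ventral mesoderm. The log2 difference was 6.68 (SE 0.98, limma adjusted p = 3.11e-05, 3.83e-06 to 0.00274 under the alternatives). AMCG00011254, the gene higher in ventral than in dorsal mesoderm by its values, measured 2.00, 1.77 and 0 CPM in ventral endoderm, below its 41.0, 136 and 106 CPM in ventral mesoderm. Its log2 difference was 4.87 (SE 1.19, limma adjusted p = 0.0157), and the adjusted p was 0.0504 to 0.109 when all 36 libraries shared their spread, or when replicate 2 or 3 of ventral mesoderm or of ventral endoderm was left out. AMCG00007793 (log2 4.75), AMCG00003881 (log2 3.93) and AMCG00017937 (log2 3.58) were also called. Their largest limma adjusted p under the alternatives was 0.0614, 0.246 and 0.290, so none of these calls held throughout.

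The largest negative difference on the ventral side was that of AMCG00010096, at 27.9, 7.01 and 10.6 CPM in ventral mesoderm and 103, 28.3 and 145 CPM in ventral endoderm. The groups did not overlap, by a narrow margin, and the log2 of -2.39 (SE 0.96) had a limma adjusted p of 0.207. No gene of the 66 was called lower in ventral mesoderm.

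**Figure D5:**
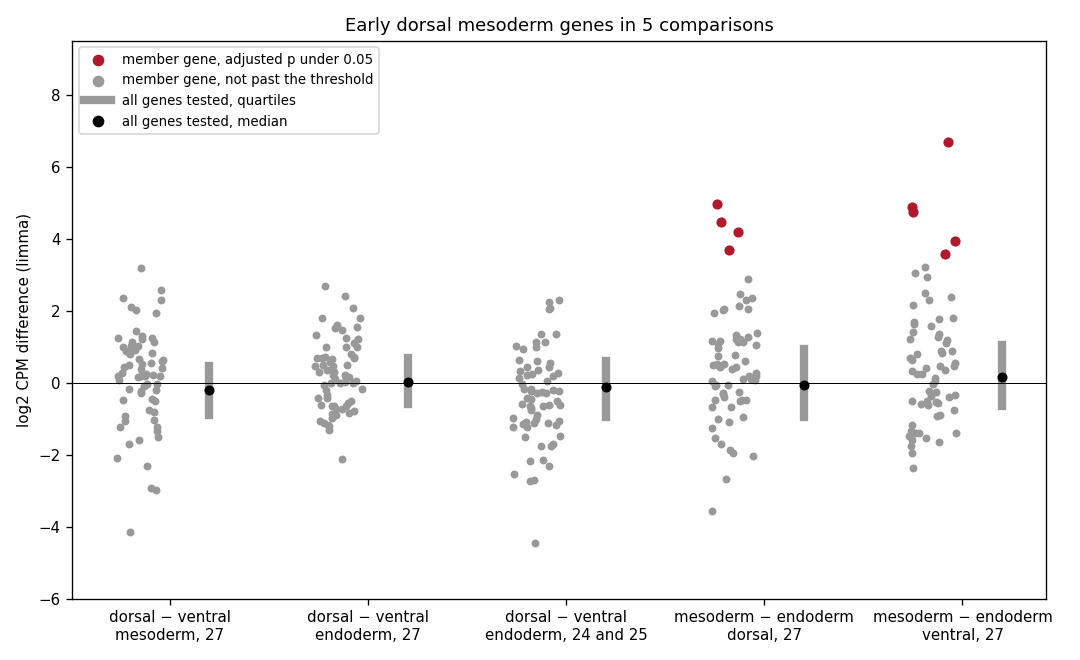
Log2 CPM difference of each of the 66 genes (grey points, or red where the limma adjusted p was under 0.05) in 5 comparisons, beside the median (black) and quartiles (bar) of all genes tested; 23 libraries enter the early endoderm fit and 12 each stage 27 fit. No gene is red in the 3 dorsal-ventral comparisons, 4 are red for dorsal mesoderm against dorsal endoderm and 5 for ventral mesoderm against ventral endoderm, all above 0.

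Between dorsal and ventral endoderm at stage 27, limma called 0 of the 66 genes, against 5 of all genes, or 0.0371%; voom called 0 of the 66. At an unadjusted p under 0.05, 1 of the 66 was higher and 0 were lower, against 3.45% and 2.25% of all genes. The log2 difference was above 0 in 38 of the 66 (57.6%), against 50.3% of all genes, and its median was 0.18 over the 66 and 0.01 over all genes. All dorsal libraries were above all ventral libraries in 2 of the 66 (3.03%, against 4.36% of all genes) and below in 1 (1.52%, against 3.07%).

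The gene with the largest positive difference, AMCG00005966, the ortholog of gar ENSLOCG00000004643, measured 47.5, 63.1 and 164 CPM in dorsal endoderm and 40.0, 7.08 and 3.45 CPM in ventral endoderm. The groups did not overlap, with a log2 difference of 2.69 (SE 0.90, limma adjusted p = 0.575). In mesoderm at the same stage it also had every dorsal library above every ventral library, at 183, 243 and 101 CPM in dorsal mesoderm and 43.2, 22.3 and 52.2 CPM in ventral mesoderm, a log2 difference of 2.10 (SE 0.90, limma adjusted p = 0.624). In early ventral mesoderm its 1 library with a read, at stage 24, stood at 76.4 CPM, within the range of its dorsal values of that stage, 15.9, 9.38 and 77.9 CPM. The largest negative difference, a log2 of -2.11 (SE 1.07, limma adjusted p = 0.88), was that of AMCG00003008, at 81.5, 0 and 22.5 CPM in dorsal endoderm and 39.0, 32.8 and 211 CPM in ventral endoderm, with overlap.

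Whether the side difference at stage 27 differed between mesoderm and endoderm was tested as an interaction. Of the 66 genes, limma called 0, against 2 of all genes, or 0.0148%, with 0.00742% in each direction, and voom called 0. The interaction was above 0 in 32 of the 66 (48.5%), against 41.9% of all genes. At an unadjusted p under 0.05, 0 were more positive and 4 more negative in mesoderm, against 1.63% and 3.61% of all genes. The largest was AMCG00009750, with a log2 interaction of -5.34 (SE 1.69, limma adjusted p = 0.713): it measured 84.4, 0 and 0 CPM in dorsal mesoderm and 35.3, 56.1 and 57.1 CPM in ventral mesoderm, but 43.0, 144 and 71.1 CPM in dorsal endoderm and 25.0, 10.6 and 7.60 CPM in ventral endoderm. Ventral libraries were thus mostly higher in mesoderm and dorsal libraries higher in endoderm.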

How the data were processed

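RNA was measured in 36 laser-captured foregut libraries. Per the labels, embryos were sectioned at 15 µm, the laser work took at most 2 hours for a slide, and RNA was amplified as cDNA. Per the submitters' processing notes, Trimmomatic 0.38, STAR 2.6, edgeR and R 3.6.0 were used; the genome build, annotation and read counter are not given in the sources used here. The deposited unit is log2 CPM per gene, computed by the authors with a prior count that the smallest value, a log2 of 0.875, puts at 2.

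Reads were recovered from these values: 100% were whole within 0.02 under 200 reads, and rebuilt values differed by at most 5.0e-09. CPM in the text are recovered reads over library totals of 3040 to 1998280; ± is the SD. Depth limits single values: 1 read is 329 CPM in the smallest library.

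Deposited log2 CPM were fitted with limma 3.58.1 (trend) in R 4.3.3, two-sided, with Benjamini-Hochberg adjustment over all genes with CPM over 1 in at least 3 libraries of the fit and a threshold of 0.05. Stage 27 contrasts used its 12 libraries and early endoderm 23 early libraries, mesoderm included. The limma step was also run on simulated data, whose outcome is not given here and is not used for any result. Alternatives were filters, median centring, quantile normalization, pseudocounts of 1 or 5 CPM, limma voom on recovered reads, all 36 libraries, a replicate block, leaving out each library and other forms of the member rule. A floor of 3 counts over a group stood for 0 reads.

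The members and gene lists were chosen with earlier results of these data known. Lists of markers (foregut mesenchyme, endoderm, skeletal muscle, heart, smooth muscle, blood and vessel, neural and neural crest, notochord, pronephros) and pathways (BMP and TGF-beta, Wnt, Hedgehog, FGF, retinoic acid, Notch, collagens and matrix) matched 0 identifiers and gave no result. Named genes were those with the largest early difference, those called or with the largest stage 27 mesoderm differences, and those read in most or fewest early endoderm libraries, with at most 2 identifiers per direction and comparison. Genes named beyond that rule were chosen after their values were seen. They are the remaining called genes, the largest differences of the other comparisons, the smallest early difference, the largest early ventral mean and the stage 25 example.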

Additional observations from a re-analysis of the deposited data

How the results depend on the processing

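The number of genes depends strongly on the rule's libraries. It was 2 when 6 of 6 dorsal and 0 of 6 ventral libraries were asked for. With at least 10 CPM in place of any read it was 55 (14 of them among the 66). After thinning early mesoderm to 512370 reads per library it was 68 (52 among the 66), and the reverse rule then gave 10. Leaving out a replicate number, which loosens the rule, gave 100 to 100 because the size limit then applied; before it the counts were 526, 300 and 696. Without the 2 early ventral mesoderm libraries with the fewest genes, an alternative chosen after seeing the data, the count was 111 before the limit and 100 after it, with 64 of the 66 kept.

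Dorsal mesoderm against dorsal endoderm at stage 27 had 1 call with all 36 libraries, against 4, and 3 to 4 when single libraries were left out. Ventral mesoderm against ventral endoderm had 3 with no filter, 3 with a pseudocount of 5 CPM and 2 with all 36 libraries, against 5, and 1 to 7 when single libraries were left out. The causes were not tested. The other 4 comparisons had 0 calls among the 66 under every alternative run, although calls over all genes varied. For dorsal against ventral mesoderm at stage 27 they ran from 14 to 170, and from 7 to 44 when single libraries were left out. Of 483 single-gene values under alternatives, 447 kept direction and side of the threshold, 34 no longer passed it, 2 newly passed it and 0 reversed. These values cover only the called genes and the 2 largest differences in each direction per comparison, so a kept direction says little. All 34 losses fell on the 4 and 5 genes called in the layer comparisons, since no other gene had a call to lose. The kept share is therefore no measure of how firm the calls are.

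Deviations of same-numbered libraries had correlations of -0.02 to 0.07 over 17 pairs of the groups compared, 0 of them above 0.1. In 11 of the 17 the first library correlated best with its own number, a hint from the data and not from the design, so the numbers were not taken to pair the samples. Whether they mark shared embryos is not known, and early mesoderm pairs were not examined. With a replicate block the calls among the 66 stayed at 4, 5 and 0 for the 2 layer comparisons and each of the others.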
